A study of Mus musculus with 2 samples.

Results

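Carbonic anhydrases convert carbon dioxide and water to bicarbonate and a proton, and each member of the family works in its own compartment. In the kidney the enzymes of the tubule cell and of its surface let bicarbonate be taken back from the filtrate and acid be secreted, and in the pancreas duct cells use them to secrete bicarbonate. The signals of the carbonic anhydrase genes were compared between 2 islet graft samples. The 10 genes Car2, Car3, Car4, Car5b, Car8, Car9, Car12, Car13, Car14 and Car15 were chosen from the mouse family by their symbols, with the signals of these samples known, so that their values are given as a description. They are 10 of the 18193 genes with a probe set that names 1 gene alone, and 10 of the 12538 genes counted as measured.

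Islets of WT C57BL/6 donors, 50 for each recipient, had been placed below the capsule of the left kidney, and grafts were taken after 6 hours. The normoglycemic recipient was a WT C57BL/6 mouse and the hyperglycemic recipient was heterozygous for Akita, a mutation of Ins2 that misfolds proinsulin and is carried from birth, so that glucose and genotype cannot be told apart. Total RNA of each sample was hybridized to 1 Affymetrix MOE430 2.0 array, which reads a transcript through sets of short probes. The Akita recipients of the study were male, and its text gives no sex for a WT recipient. The study transplanted young adult mice, but the labels tie no age to the array samples. The sources used here do not say how many mice were behind each array sample. With 1 array per condition, no test, SD or replicate error could be had for any value, and every difference is one between these 2 samples.

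Both grafts were mixtures of islet and kidney. Ins2, which encodes insulin, had signals of 68738 in the normoglycemic and 88302 in the hyperglycemic graft, and Kap, which proximal tubule cells express abundantly, gave 89517 and 128500. The labelled tissue was therefore found by its defining marker, and so was the host organ. In such bulk samples fewer cells of a type and less RNA per cell cannot be told apart. The median signal was 82.9 on the normoglycemic and 91.5 on the hyperglycemic array. Signals under these medians are called low, and genes with low signals on both arrays are not counted as measured. The signals are on a linear scale, and the mean after trimming 2% of the probe sets at each end was 500.004 on both arrays. A gene with several probe sets was taken at the one with the highest mean log2 signal.

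All 10 genes had both signals above the array medians, and all 10 were lower in the hyperglycemic graft. Of all 12538 measured genes 55.2% were lower by any amount, and of the 10816 genes with neither signal low 55.5% were. The median log2 ratio of hyperglycemic over normoglycemic signal was -0.69 over the 10 genes, a 1.61-fold lower signal, beside -0.06 over all measured genes. Car3 and Car9 were over 2-fold lower, which is 2 of 10 genes beside 5.54% of measured genes and 1.89% of those with neither signal low. None of the 10 was over 2-fold higher, beside 7.56% and 3.53% of genes in the same 2 backgrounds. Without Car3 the median of the other 9 genes was -0.64, with log2 ratios from -1.17 to -0.12.

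**Figure D1:**
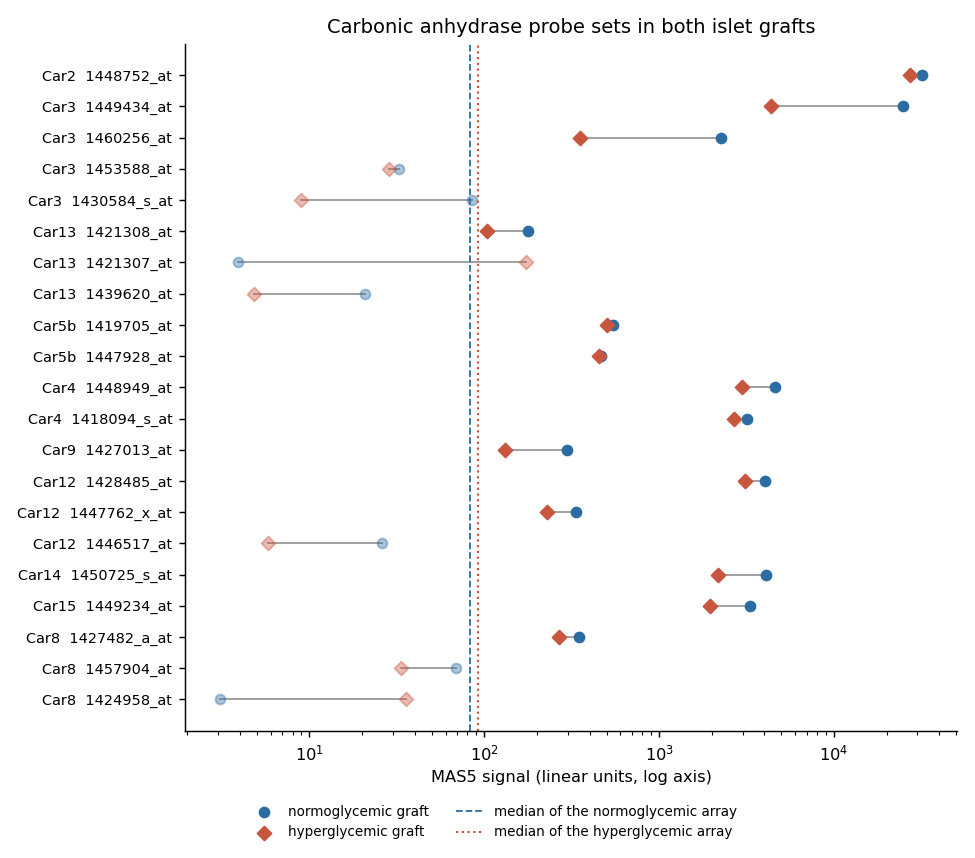
MAS5 signal of each of the 21 carbonic anhydrase probe sets in the normoglycemic graft (blue circles) and the hyperglycemic graft (red diamonds), on a log axis, with the median of each array as a vertical line and pale symbols where 1 or both signals lie below it. In all 14 probe sets with both signals above the medians the red diamond lies to the left of the blue circle, farthest for Car3. The 14 belong to 10 genes, and of all genes with neither signal low 55.5% were lower.

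The 10 genes were read by 21 probe sets, as the plot of signals by probe set shows. Both signals reached the array medians in 14 probe sets, and all 14 were lower in the hyperglycemic graft. They belong to the 10 genes, 4 of which have 2 or more such probe sets, and no share over all probe sets was computed. Of all genes with neither signal low, 55.5% were lower. In a further 2 probe sets only 1 signal reached its array median, with 1 higher and 1 lower, and in 5 both signals were low. Every probe set was lower in 8 of the 10 genes, though 4 of these have only 1, and Car3 and Car12 include low signals. The exceptions were Car13 and Car8, and their opposing probe sets had at least 1 low signal. Probe sets of 1 gene share their RNA sample and are no replicates. Their ratios nevertheless give a measure of technical spread. From the differences between the 2 brightest probe sets of each such gene on the array, the SD of the log2 ratio of a single probe set was 0.61 where the dimmer had a mean signal from 64 to 256, 0.33 from 256 to 1024, 0.22 from 1024 to 4096 and 0.20 above. This spread covers neither mice nor grafts.

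The region before the start of 3 membrane-bound or mitochondrial genes is shown because Car9 is a textbook target of hypoxia-inducible factor, whose binding element has the core ACGTG or GCGTG. Windows of 250 bases before the annotated start were taken from RefSeq on GRCm38.p6 for the 6 genes with an entry, Car4, Car5b, Car9, Car12, Car14 and Car15, and both strands were searched. ACGTG was found in 2 of the windows. These were chr4:43506776-43507025 of Car9, a gene on the plus strand, and chr3:95904686-95904935 of Car14, a gene on the minus strand. In both the match lay on the strand opposite to the gene. GCGTG was found 5 times, on both strands, in the window chrX:164028011-164028260 of Car5b, a gene on the minus strand. The other 3 windows held neither. Of 32851 such windows of the genome, 16.6% held ACGTG, 28.2% held GCGTG and 38.6% held either, so that matches of this kind were common. A match is a run of letters, and no binding was measured. The sequences run 5′ to 3′ along the gene and end at the base before the start. Capitals mark the core, which reads CACGT or CACGC where it lies on the opposite strand.
Car9: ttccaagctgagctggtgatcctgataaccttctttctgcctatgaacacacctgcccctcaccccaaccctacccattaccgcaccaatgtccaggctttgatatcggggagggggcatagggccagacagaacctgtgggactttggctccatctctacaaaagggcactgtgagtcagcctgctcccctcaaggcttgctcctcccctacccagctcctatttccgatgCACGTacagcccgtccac
Car14: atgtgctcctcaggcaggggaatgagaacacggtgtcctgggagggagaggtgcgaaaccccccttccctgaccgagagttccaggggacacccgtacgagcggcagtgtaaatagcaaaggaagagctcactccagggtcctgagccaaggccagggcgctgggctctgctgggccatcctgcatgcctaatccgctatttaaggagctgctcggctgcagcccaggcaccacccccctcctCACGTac
Car5b: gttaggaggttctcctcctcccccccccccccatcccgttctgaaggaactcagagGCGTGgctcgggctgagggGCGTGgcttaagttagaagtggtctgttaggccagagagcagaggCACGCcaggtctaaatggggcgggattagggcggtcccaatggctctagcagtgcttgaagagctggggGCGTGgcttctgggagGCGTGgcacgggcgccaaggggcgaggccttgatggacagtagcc

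The cytosolic enzymes were Car2, Car3 and Car13, and their log2 ratios ranged from -2.51 to -0.23 (median -0.77). Car3, a cytosolic form of low activity that is abundant in skeletal muscle and fat, had a signal of 24755 in the normoglycemic and 4338 in the hyperglycemic graft. It was 5.71-fold lower, and of the 10816 genes with neither signal low 2 had a lower ratio. A second Car3 probe set, built on the same representative transcript, had signals of 2267 and 353, which is 6.42-fold lower. The 2 ratios, -2.51 and -2.68 on the log2 scale, lay closer to each other than to that of any other carbonic anhydrase. Another probe set, which can bind several transcripts, had signals of 84.9 and 8.97, of which the first barely reached the array median. The last had low signals of 32.6 and 28.7, and neither of these 2 allows a fold.

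Car2, the highly active cytosolic form of red cells, osteoclasts, kidney tubule and pancreatic duct, had signals of 31999 and 27320 on its 1 probe set. These placed it at the 99.7th percentile of the normoglycemic array and at the 99.5th of the hyperglycemic array, where a percentile locates a signal and does not rank genes by their RNA. Car2 was 1.17-fold lower (log2 ratio -0.23), about the technical spread between probe sets at bright signals. The difference between the Car2 and the Car3 ratio was thus far larger than that spread. In the gene order of RefSeq, Car13, Car1, Car3 and Car2 follow each other with 0 other protein-coding genes between neighbours. Adjacent genes of this cluster therefore had unlike ratios in the same pair of samples.

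Car13, also cytosolic, had signals of 177 and 104, close to the array medians. It was 1.70-fold lower (log2 ratio -0.77). A second Car13 probe set went the other way, from 3.91 in the normoglycemic to 173 in the hyperglycemic graft, at least 2.09-fold higher with both signals raised to the medians, and another had low signals of 20.7 and 4.82. The direction of Car13 therefore depended on the probe set and is uncertain.

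Car5b, the mitochondrial form found in many tissues, had signals of 543 and 501 on one probe set and 462 and 455 on the other. It was 1.08-fold and 1.02-fold lower. Both differences were within the technical spread, and Car5b had the ratio closest to 1 of the 10 genes.

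The membrane-bound enzymes were Car4, Car9, Car12, Car14 and Car15, with a median log2 ratio of -0.74 and a range from -1.17 to -0.37. Car9, a transmembrane form known for its induction by lack of oxygen, had signals of 295 and 131. It was 2.26-fold lower, on 1 probe set whose hyperglycemic signal was not far above the array median. Of the 10816 genes with neither signal low 115 had a lower ratio.

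Car14, a transmembrane form of the kidney tubule, had signals of 4060 and 2175, 1.87-fold lower (log2 ratio -0.90). Its 1 probe set can bind several transcripts. Car15, a form that is anchored to the membrane by a lipid and has been lost as a working gene in primates, had signals of 3290 and 1965. It was 1.67-fold lower (log2 ratio -0.74). Both differences were larger than the technical spread at signals of this height.

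Car4, the lipid-anchored form of the proximal tubule brush border and of capillary endothelium, had signals of 4616 and 2967, 1.56-fold lower (log2 ratio -0.64). On a second probe set that can bind several transcripts the signals were 3172 and 2681, 1.18-fold lower (log2 ratio -0.24). The probe sets gave the same direction and unlike sizes. Car12, a transmembrane form of the distal nephron and other epithelia, had signals of 4027 and 3107 and was 1.30-fold lower, and a second probe set with signals of 336 and 229 was 1.47-fold lower. The remaining Car12 probe set had low signals of 25.8 and 5.80. The direction was thus the same in both measured probe sets of Car12.

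Car8 lacks enzyme activity and binds the inositol trisphosphate receptor. Its brightest probe set had signals of 346 and 266, 1.30-fold lower (log2 ratio -0.38). The other 2 had low signals, 68.7 and 33.4 on one and 3.08 and 35.5 on the other, and allow no fold.

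**Figure D2:**
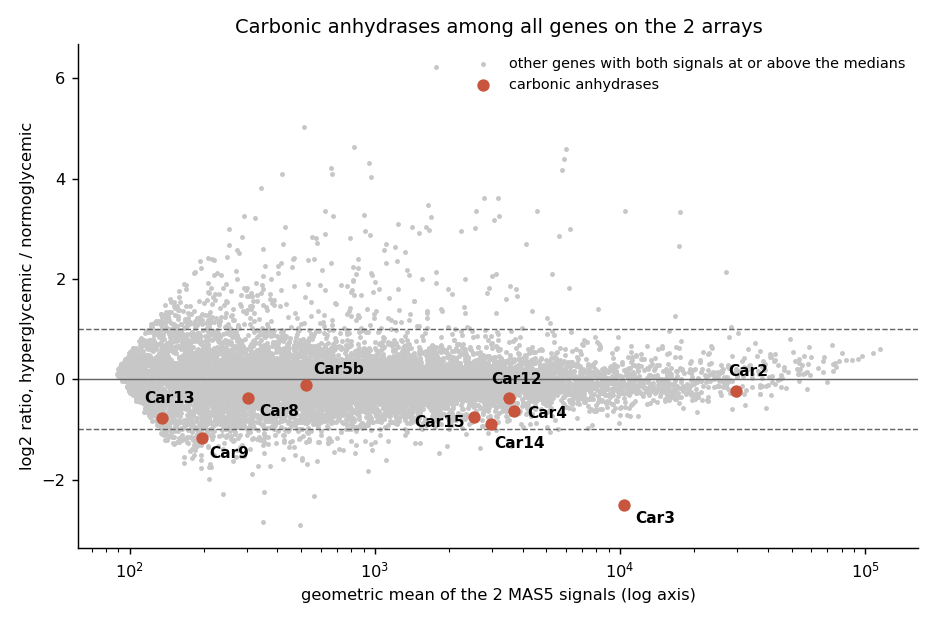
Log2 ratio of hyperglycemic over normoglycemic signal against the geometric mean of the 2 signals (log axis) for the genes with neither signal low (grey), with the 10 carbonic anhydrases in red and dashed lines at a 2-fold difference. All 10 lie below 0, Car3 lies apart from genes of like signal at -2.51, and Car9 is the other one past the 2-fold line at -1.17.

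The plot of ratios against signals sets the 10 genes among the rest of the array. Outside Car3 and Car9 their ratios reached from the lower tail of all genes toward the middle. Of the 10816 genes, 318 (2.94%) had a lower ratio than Car14, 579 (5.35%) than Car13, 629 (5.82%) than Car15 and 916 (8.47%) than Car4. A lower ratio than that of Car2 was seen in 3603 genes (33.3%) and than that of Car5b in 4785 (44.2%). Car5b was thus near the middle of all genes and Car2 somewhat below it.

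The other 6 carbonic anhydrases with a probe set were largely low. Car1, Car5a, Car10 and Car11 had both signals below the medians on every probe set. Car6, the secreted form, had signals of 78.6 and 121, at least 1.46-fold higher in the hyperglycemic graft. Car7, a cytosolic form, had signals of 305 and 207 on its brightest probe set, 1.47-fold lower, and low signals on the other 2.

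Carbonic anhydrases work with transporters of bicarbonate, protons and ammonia. These were taken from lists that were chosen with earlier results of these data known. Of 8 measured bicarbonate and anion exchangers, 5 were higher and 3 lower, none by over 2-fold (median log2 ratio 0.05). Slc4a4, the sodium bicarbonate cotransporter of proximal tubule cells, had signals of 22609 and 24787, and Slc26a4, the chloride bicarbonate exchanger pendrin, had signals of 2210 and 1177. The first was 1.10-fold higher and the second 1.88-fold lower. Of 7 measured genes of the sodium-hydrogen exchanger list, 4 were higher and 3 lower (median 0.03). Slc9a3, the exchanger of the brush border, had signals of 2337 and 2739, its scaffold Slc9a3r1 had 24070 and 21500, and Slc9a7 of the Golgi was 2.16-fold higher at 290 against 134. These transporters had no shared direction.

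Of 16 measured subunits of the vacuolar proton pump, 12 were lower and 4 higher (median -0.28). The 2 that were over 2-fold lower were Atp6v1b1, the subunit of intercalated cells, with signals of 1385 and 501 (2.77-fold), and Atp6v1c2, with 303 and 113 (2.67-fold). The brightest subunits, Atp6v1g1 and Atp6v1e1, had signals of 18600 and 29434 and of 15956 and 14244. The brightest subunits thus differed in direction. Of 7 measured genes of ammonia production and transport, 6 were lower and none was past 2-fold (median -0.27). Pck1 and Glud1 act in the proximal tubule, where ammonia is made. Their signals were 27874 and 27551 for Pck1 and 14326 and 14200 for Glud1.

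Of 15 genes known to be induced by lack of oxygen, 9 were higher and 6 lower (median 0.17). Ankrd37 was 2.95-fold higher, from 144 to 424, and Pfkfb3, an activator of glycolysis, was 2.35-fold higher, from 202 to 475. The brightest, Ndrg1 and Ldha, had signals of 53647 and 57621 and of 21623 and 21122. Car9, a target of the same factor, was lower in the same comparison. Its direction was opposite to that of Ankrd37 and Pfkfb3 and the same as that of the 6 lower genes. Of the 15 listed genes, 0 were over 2-fold lower.

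**Figure D3:**
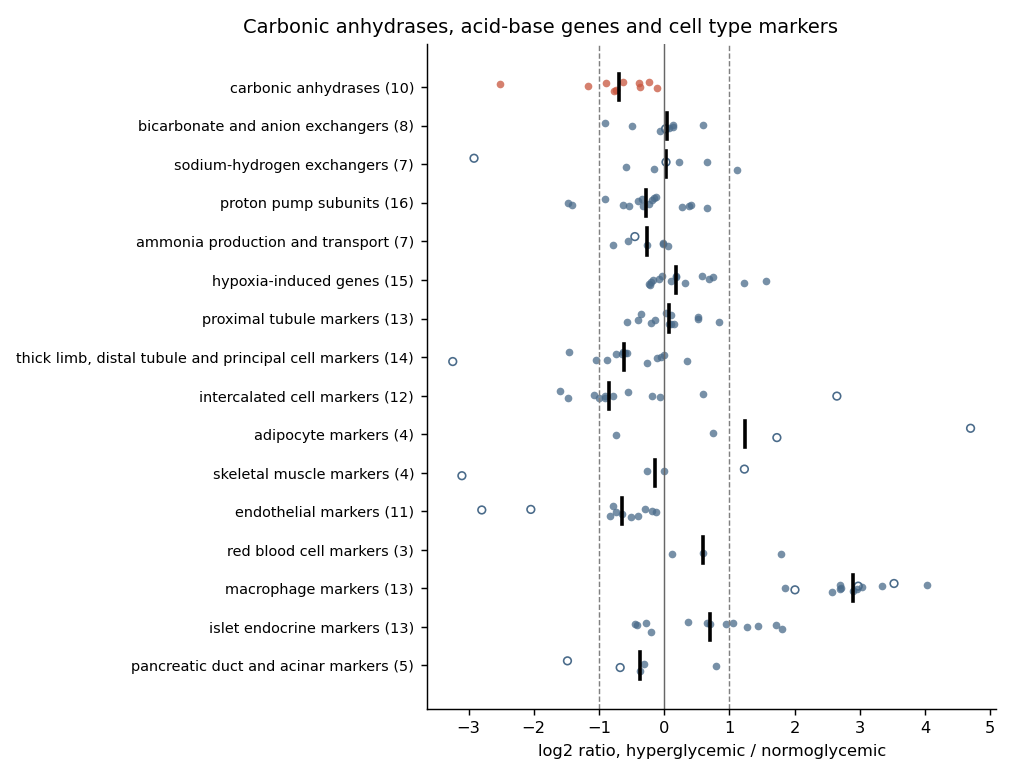
Log2 ratio of hyperglycemic over normoglycemic signal for the carbonic anhydrases (red) and for measured genes of 15 lists (blue, number of genes in parentheses). The lists were chosen with earlier results of these data known. Black bars are the median of each list, dashed lines mark 2-fold, and circles are open where 1 signal lies below the array median. The carbonic anhydrase median of -0.69 lies near those of the thick limb, distal tubule and principal cell list at -0.62, the intercalated cell list at -0.85 and the endothelial list at -0.65, and the macrophage list is highest at 2.89.

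Carbonic anhydrases are made by several cell types of these grafts, and markers of those types were read in the same way. Of 13 measured proximal tubule markers, 8 were higher and 5 lower (median 0.07), and the signals of all listed genes with a probe set, which are summed here and for each list that follows, came to 314482 in the normoglycemic and 364199 in the hyperglycemic graft. Kap and Acsm2, the brightest, were 1.44-fold and 1.43-fold higher and made up much of both sums. Miox, Slc22a6 and Slc5a2, named after their values were seen, were 1.48-fold, 1.33-fold and 1.29-fold lower. The proximal tubule markers thus had no shared direction, whereas the 10 carbonic anhydrases were all lower.

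Of 14 markers of thick limb, distal tubule and principal cells, 13 were lower, 3 of them over 2-fold, with a median of -0.62 and summed signals of 62226 and 46807. Slc12a1, the salt transporter of the thick limb, was 2.75-fold lower, Scnn1g, a subunit of the epithelial sodium channel, was 2.07-fold lower, and Cldn16, named after its value was seen, was at least 4.78-fold lower. The brightest, Umod and Calb1, had signals of 21900 and 14747 and of 20458 and 19842. Of 12 measured intercalated cell markers, 10 were lower and 2 higher, with a median of -0.85 and summed signals of 10370 and 6571. Most of them, such as Slc26a4, Atp6v1b1 and Atp6v0a4, were also counted above among exchangers, proton pump subunits or ammonia genes. These lists are therefore not separate observations. Hmx2 was 3.04-fold lower, Atp6v1b1 2.77-fold and Aqp6 2.10-fold, and Atp6v0a4 had signals of 1574 and 1383. Kit, named after its value was seen, was at least 1.92-fold higher, and it also marks mast cells. Markers of these nephron segments moved with the carbonic anhydrases, and their part in the lower carbonic anhydrase signals was not tested.

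All 11 measured endothelial markers were lower (median -0.65, and -0.51 with low signals raised to the medians), with summed signals of 5861 and 3982. The brightest, Plvap and Flt1, had signals of 1187 and 710 and of 1047 and 915. Capillaries carry Car4, and the part of the endothelium in its lower signal was not tested.

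Car3 is known from fat and muscle, so the defining markers of both, named here after their values were seen, stand beside it. Of 8 adipocyte markers with a probe set 4 were measured, with 3 higher and 1 lower and summed signals of 4466 and 7483. Adipoq, the adiponectin gene, had signals of 31.7 and 105, Retn, the resistin gene, had 6.52 and 169, and Lep, Cidec, Pparg and Ucp1 had both signals below the medians. These 6 genes were thus low in the normoglycemic graft. Fabp4, which endothelium and macrophages also express, had signals of 4145 and 6965, and Lipe had 228 and 136. Of 10 skeletal muscle markers 4 were measured, with 1 higher and 3 lower and summed signals of 1445 and 1397. Pvalb, which is also a marker of the distal tubule, made up most of both sums, with signals of 1004 and 998. Tnni2 had 112 and 93.4, Acta1 had 43.8 and 103, and Ckm had low signals of 46.6 and 32.0. Myh1 was lower, with signals of 90.5 and 10.5, but the first was not far above the array median and allows no fold. In the normoglycemic graft Fabp4, Pvalb and Lipe thus lay well above the array median, while Adipoq, Retn, Acta1 and Ckm lay below it. The part of fat or muscle in the Car3 signals was not tested.

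Car2 is a gene of red cells and of the pancreatic duct as well as of the kidney. Of 7 red cell markers with a probe set 3 were measured, and all 3 were higher. Alas2, the heme synthesis enzyme of red cell precursors, had signals of 668 and 2319, and Slc4a1, the anion exchanger of red cells and intercalated cells, had 343 and 519, while Hba-a1, Rhag and Car1 were below the medians in both grafts. Of 5 measured pancreatic duct and acinar markers 4 were lower and 1 higher (median -0.38), with summed signals of 19154 and 15450. The sum was nearly all Cela1, at 18162 and 14625. Sox9, the next brightest, had signals of 385 and 296 and also marks kidney epithelium. Krt19 and Cftr, named after their values were seen, differed in direction. Krt19 had signals of 92.4 and 160, 1.73-fold higher, and Cftr had 231 and 82.7, at least 2.53-fold lower. The 6 unmeasured markers with a probe set, among them the acinar genes Cpa1, Cpb1, Cela2a, Ctrb1 and Cel, were low on both arrays.

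The largest median ratio in size among the cell type lists was that of macrophages. All 13 measured macrophage markers were over 2-fold higher in the hyperglycemic graft, with a median of 2.89 and summed signals of 11559 and 93255. Lyz2, the macrophage lysozyme, had signals of 5539 and 55987, and Cd14, a receptor for bacterial lipopolysaccharide, had 1624 and 10468. Fcgr3, an Fc receptor, was 16.3-fold higher and C1qb, a chain of complement C1q, 8.19-fold. Of 13 islet endocrine markers 9 were higher and 4 lower, with a median of 0.70 and summed signals of 143574 and 219113, 1.53-fold higher. The hormone genes Ppy, Pyy and Sst were 3.51-fold, 3.27-fold and 2.70-fold higher, and Iapp, the amylin gene, had signals of 47116 and 74018. The 4 lower ones, named after their values were seen, were Chga, Chgb, Pdx1 and Nkx6-1, by 1.21-fold, 1.15-fold, 1.33-fold and 1.37-fold. Both arrays were scaled to the same trimmed mean. How much of the lower carbonic anhydrase signals goes with these lists was not tested. The 3′ to 5′ signal ratios of the array's own controls, a measure of RNA quality, were 3.54 and 3.99 for Actb and 1.30 and 1.76 for Gapdh, higher in the hyperglycemic graft in both cases.

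**Figure D4:**
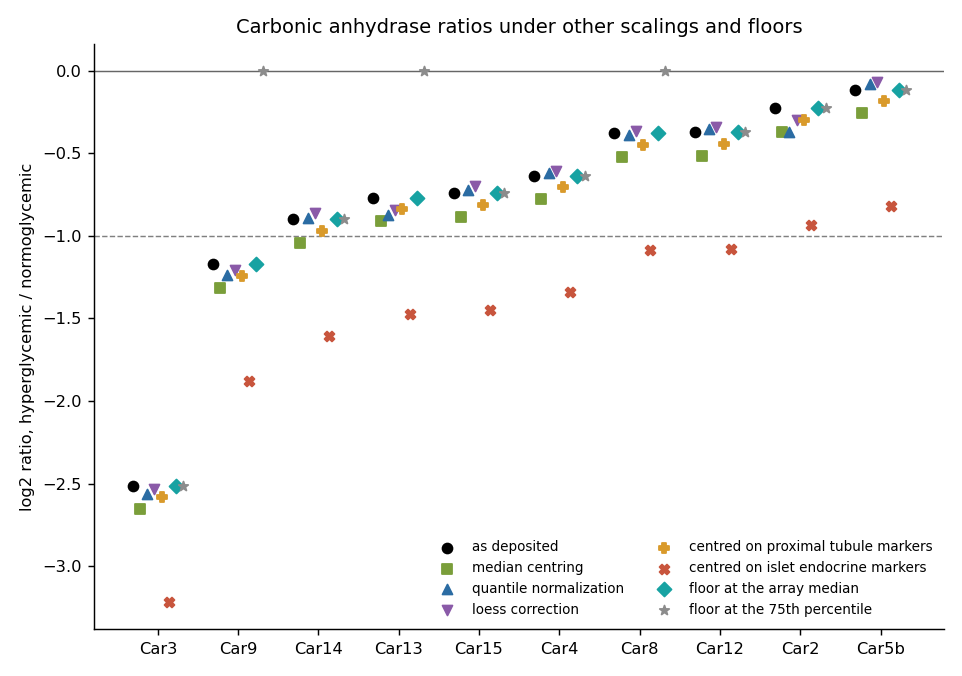
Log2 ratio of hyperglycemic over normoglycemic signal of each carbonic anhydrase as deposited (black circles) and under 5 other scalings and 2 floors on low signals, with a dashed line at 2-fold lower. Car3 stays at -2.51 or lower under each of those shown, whereas centring on islet endocrine markers shifts all genes down and the floor at the 75th percentile sets Car9, Car13 and Car8 to 0.

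The plot of ratios under other scalings shows which of these differences depended on the processing. Over 12 alternatives the log2 ratio of Car3 lay between -3.22 and -2.51. That of Car14 lay between -1.60 and -0.86, that of Car15 between -1.45 and -0.70 and that of Car4 between -1.34 and -0.44. Car9 ranged from -1.88 to 0 and Car13 from -1.47 to 0, since both signals of each lay below the 75th percentile of the arrays, and Car8 did the same from -1.08. Car2 lay between -0.93 and -0.23 and Car5b between -0.82 and -0.07. None of the 10 turned higher, but several alternatives could not have turned a gene. Floors at or below the array median and both changes of the filter on low signals left each ratio as it was. Leaving out probe sets able to bind several transcripts did the same for the genes kept. Centring on the array median or on markers shifted all genes down. Loess, quantiles and the median of probe sets could have changed a direction, and under these all 10 stayed lower. Car13 was never taken at its opposing probe set.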

How the data were processed

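Islet grafts of 1 normoglycemic and 1 hyperglycemic mouse sample were measured on 1 MOE430 2.0 array each. The authors deposited signal intensities on a linear scale, made with MAS5 per the submitters' processing notes, without a version. The methods name the Subio Platform and no settings. The table held 0 columns of samples of other series. Gene names came from the annotation of the platform, in which 34945 of 45101 probe sets carried 1 gene symbol, with 64 controls left out. The 10 gene identifiers were found in RefSeq (GRCm38.p6).

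The members and the 16 gene lists were chosen with earlier results of these data known. Ratios of the signals as deposited, hyperglycemic over normoglycemic, and their log2 were computed without further scaling or a test, and counts were set beside those over all measured genes. Where only the lower signal was below its array median, both were raised to the medians and the fold is a bound, given where the direction was kept. The text names all members, from each list up to 3 genes over 2-fold in either direction with neither signal below the medians and the 2 with the highest mean signal, and Ins2, Kap and Lyz2. Defining markers of fat, muscle and red cells, acinar genes at low signals, Cldn16, Kit, Car1, Car5a, Car10 and Car11 were named after their values were seen.

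In 14 alternatives the arrays were scaled by loess (span 0.3, 3 iterations), by quantiles, on the array median, or on proximal tubule or islet endocrine markers. Low signals were raised to the 25th, 50th or 75th percentile, a gene was taken at the median of its probe sets, those able to bind several transcripts were dropped, the filter on low signals was extended to both arrays or dropped, and the limit was set to 1.5-fold or 5-fold. Genes with both signals at a floor were given a log2 ratio of 0. The scripts were tested on simulated data. Precision is limited by the number of arrays, 1 per condition. Python 3.11.15, numpy 2.4.6, pandas 2.3.3, statsmodels 0.14.6 and matplotlib 3.10.9 were used.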

Additional observations from a re-analysis of the deposited data

How the results depend on the processing

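Of the 10 genes, 2 were over 2-fold lower as deposited, and no gene was over 2-fold higher under any of the 14 alternatives. Several of the alternatives could not have made a lower gene higher, as stated above. Centring on islet endocrine markers, which moved the median of all measured genes from -0.06 to -0.77, gave 8 genes over 2-fold lower and a median log2 ratio of -1.39, and 30.1% of all measured genes were then over 2-fold lower. Median centring moved the median of all genes to -0.20 and added Car14, for 3 genes, with 7.58% of all measured genes over 2-fold lower. A floor at the 75th percentile gave 1 gene and a median of -0.30, since fewer signals lie above it. Under that floor 0.399% of all measured genes were over 2-fold lower and the median of all genes was 0. A limit of 1.5-fold gave 6 genes (14.4% of measured genes), and a limit of 5-fold gave 1, Car3 (1.38%). Without the probe sets able to bind several transcripts, Car14 and Car8 were lost and Car3 and Car9 were still over 2-fold lower. The share of all measured genes over 2-fold lower was then 6.15%. With 1 array per condition no replicate could be left out. No paired analysis was possible because each condition has 1 sample.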
